A study of Homo sapiens with 6 samples.

Results

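The ATP-binding cassette (ABC) genes of subfamilies A to G were examined in RNA-seq libraries labelled MG63, a human osteosarcoma cell line, after knockdown of FUBP1, a nuclear protein that binds single-stranded DNA upstream of genes such as MYC. Members were the protein-coding genes whose symbol is ABC, a subfamily letter from A to G and a number, which gave 45 of the 58735 genes in the table: 12 of subfamily A, 9 of B, 11 of C, 4 of D, 1 of E, 3 of F and 5 of G. The rule itself uses no measured value. The 3 siFUBP1 samples had been transfected with siRNA against FUBP1 and the 3 siMock samples with a negative control siRNA, and RNA was taken 48 h later in both groups, with no drug named in the labels. The study designed more than 1 siRNA against FUBP1, and which was sequenced is not given in the sources used here, nor whether the samples of a group came from separate cultures, so that p-values measure the spread between these samples only.

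ABC proteins bind and split ATP with a conserved nucleotide-binding domain. Most members couple this to moving a substrate across a membrane: subfamily A and part of G carry sterols and other lipids, subfamily B serves the plasma membrane, mitochondria and lysosomes, subfamily C exports organic anions, conjugates and drugs, and subfamily D serves peroxisomes and lysosomes. Subfamilies E and F have no membrane segments and act in translation. Several members of B, C and G expel anticancer drugs and are studied in tumours, osteosarcoma included, for that reason.

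The libraries held between 16309900 and 17484313 counts each. FUBP1, the targeted gene, had 3872, 4331 and 4282 counts in siMock and 749, 752 and 926 in siFUBP1, a log2 fold change of -2.44 ± 0.09 (SE, adjusted p = 1.9e-17, edgeR), or 18.4% of siMock. Of 7 genes that mark mesenchymal and osteoblast cells, VIM and COL1A1 were well expressed, at means of 149 and 113 CPM (counts scaled to library size by edgeR) in siMock, but COL1A2 had 0 counts in all 6 libraries, SPARC 12 and ALPL 2 counts over all of them, which goes against the labelled cell type; the cells are therefore called by their label only. Within this list COL1A1 fell (log2 fold change -1.31, adjusted p = 1.83e-13, edgeR), while VIM rose (0.38, adjusted p = 2.1e-04, edgeR). RUNX2 was scarce, with 8, 8 and 6 counts in siMock and 73, 97 and 39 in siFUBP1, and entered the test through its siFUBP1 counts. The summed level of the 7 genes was 256.5 to 272.6 CPM in siMock and 234.2 to 261.7 CPM in siFUBP1. The summed markers of epithelial cells were at 4.73 to 5.75 and 6.404 to 7.564 CPM, those of leukocytes at 3.90 to 4.52 and 2.19 to 3.60 CPM, those of endothelial cells at 3.20 to 5.17 and 1.89 to 2.80 CPM, and those of hepatocytes at most at 0.0576 CPM. The mitochondrial share of counts was 5.60% to 6.59% in siMock and 3.98% to 4.88% in siFUBP1. Their part in the results below was not tested. In bulk RNA, fewer cells of a kind and less RNA per cell cannot be told apart.

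Of the 45 members, 30 had enough counts to be tested. A member rose or fell where its adjusted p was below 0.05 in edgeR's quasi-likelihood test over all 16116 tested genes. After FUBP1 knockdown 20 members fell, which is 66.67% of those tested against a background of 30.1% of all tested genes. Only 3 rose, or 10% against a background of 30.1%, and 7 did not pass. Past a 2-fold change, 9 members were lower, or 30% against 9.13% of all tested genes, and 0 were higher, against 8.16%. The median log2 fold change of the tested members was -0.42, and that of all tested genes 0.002. For 24 of the 30 members (80.0%) the CPM ranges of siMock and siFUBP1 were apart, against 63.9% of all tested genes. ABCA4 and ABCA10 had at most 6 counts in any siFUBP1 sample and entered the test through their siMock counts. Both are among the 20 members that fell and the 9 lower past 2-fold, and the shares that follow leave them out. Among the 25 members with a mean of at least 100 counts, 16 fell (64.0%, against 34.6% of the 11115 genes of that depth), 3 rose (12% against 33.6%) and 6 were lower past 2-fold (24.0% against 7.03%). These shares describe the family and were not given a test of their own.

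**Figure D1:**
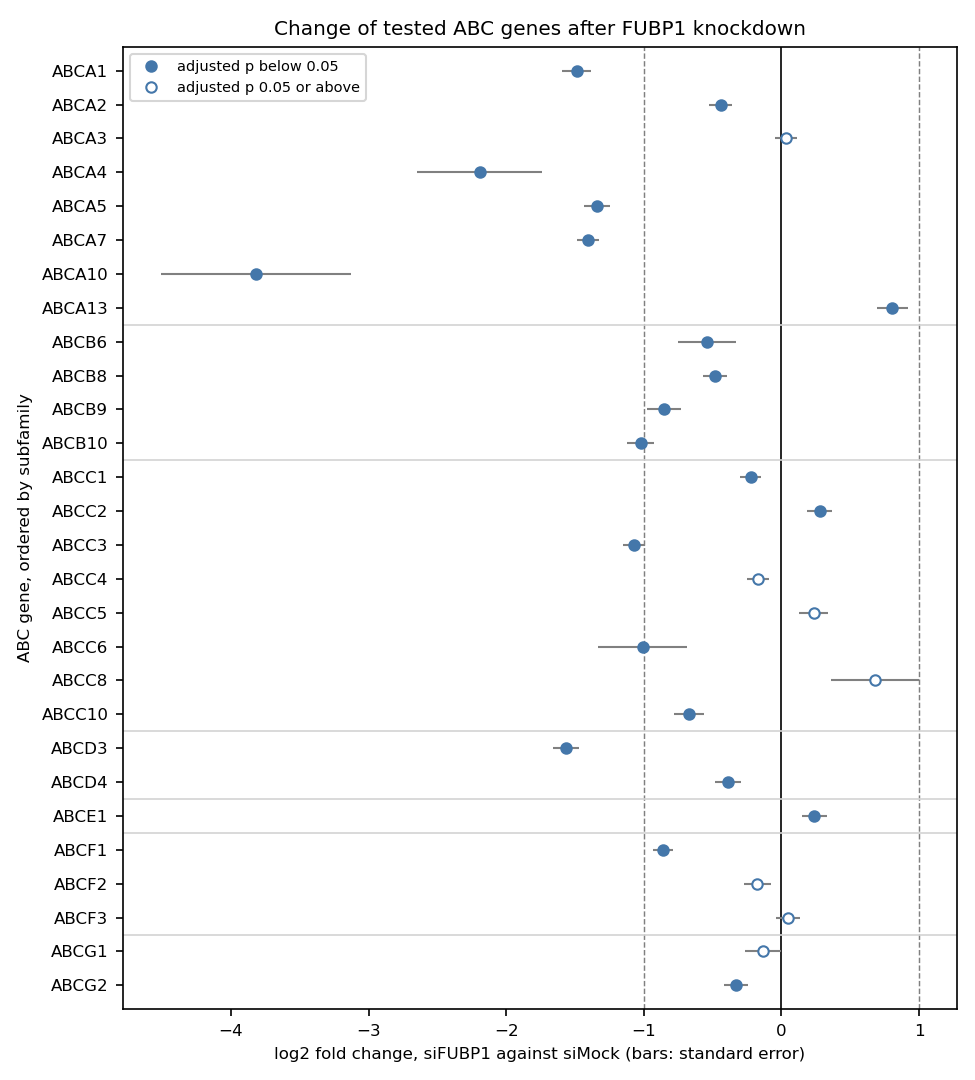
Log2 fold change of 28 tested ABC genes, siFUBP1 against siMock, with its standard error as a bar, ordered by subfamily. Dashed lines mark a 2-fold change. Filled points passed the test: 18 of the 21 lie left of 0, and the open points are the 7 members that did not pass.

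Promoters are shown for the members with a mean of at least 100 counts that fell and rose most, ABCD3 and ABCA13, since they are the ends of the response. Each runs from 250 bases before to 50 bases after the gene's start in RefSeq (GRCh38.p14), written 5′ to 3′ on the gene's strand. ABCD3 lies at chr1:94418139-94418438 (plus strand) and ABCA13 at chr7:48171208-48171507 (plus strand). Capitals mark, on either strand, each match to GGGCGG (the GC box) in ABCD3 and to TGATGNAA (the core of the amino acid response element) in ABCA13.
ABCD3: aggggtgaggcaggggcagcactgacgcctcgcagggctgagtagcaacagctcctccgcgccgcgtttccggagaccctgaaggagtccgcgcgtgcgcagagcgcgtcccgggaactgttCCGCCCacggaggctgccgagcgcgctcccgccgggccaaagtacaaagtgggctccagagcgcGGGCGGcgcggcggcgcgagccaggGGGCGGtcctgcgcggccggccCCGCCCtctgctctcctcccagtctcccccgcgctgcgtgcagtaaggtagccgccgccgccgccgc
ABCA13: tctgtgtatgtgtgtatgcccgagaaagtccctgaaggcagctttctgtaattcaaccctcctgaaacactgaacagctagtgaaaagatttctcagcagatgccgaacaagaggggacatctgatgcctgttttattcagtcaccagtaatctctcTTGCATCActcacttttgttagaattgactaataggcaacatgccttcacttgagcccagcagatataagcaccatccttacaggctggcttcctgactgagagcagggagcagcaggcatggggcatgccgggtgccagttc
The ABCD3 window was 75.0% G or C and held 4 GC boxes, beginning 128, 64, 39 and 17 bases before the start. The ABCA13 window was 48.3% G or C and held 1 match to the amino acid response core, beginning 93 bases before the start.

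RefSeq gave such a window for 35 of the 45 members, 23 of them tested, and for 10541 tested genes. Their median G and C content was 65.7% for the members and 65.3% for the tested genes. The GC box was found in 15 of the 23 windows (65.2%, against 69.8% of the tested genes' windows), and CCAAT in 4 (17.4% against 36.6%). Among the 23 tested windows, TGATGNAA was found in those of ABCA13 and ABCG2 only, 8.70% against 1.603%. TGACNNNGC, the core of the antioxidant response element, was found in 7 (30.4% against 15.5%): those of ABCA2, ABCA3, ABCA5, ABCB6, ABCC4, ABCD4 and ABCF1. CACGTG was found in 3 (13.0% against 10.2%), TATAAA in 4 (17.4% against 5.61%), AGGTCA in 2 (8.70% against 10.03%) and TGACGTCA in 1 (4.35% against 3.22%). All motifs were searched on both strands and could overlap each other. A match is only a match of letters.

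The multidrug efflux pumps did not share a direction. Of 9 such members, ABCC3, ABCC10, ABCG2 and ABCC1 fell, ABCC2 rose, ABCC4 and ABCC5 did not pass the test, and ABCB1 and ABCC11 had too few counts to test. ABCC3 (chr17:50634777-50692252, GRCh38, as all gene positions given), which exports bile salts and conjugates across the basolateral membrane, had 209.9, 224.6 and 208.5 CPM in siMock and 108.0, 107.3 and 91.2 CPM in siFUBP1. The groups did not overlap, and every siFUBP1 sample was far below every siMock sample. Its log2 fold change was -1.07 ± 0.08 (SE, adjusted p = 1.68e-11, edgeR), which left the 2-fold range under 4 of the 17 alternatives, where the smallest fall was -0.90.

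ABCC2 (chr10:99782640-99852594), the apical exporter of glutathione and glucuronide conjugates, was the pump with the highest level and the only pump that rose. It had 201.6, 259.9 and 266.2 CPM in siMock and 293.9, 284.6 and 303.8 CPM in siFUBP1. All siFUBP1 samples were above all siMock samples, and siMock replicate 1 was well below the other siMock samples. The log2 fold change was 0.28 ± 0.09 (SE, adjusted p = 0.00921, edgeR), and without siMock replicate 1 it was 0.15 and did not pass (adjusted p = 0.111, edgeR).

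ABCG2, which expels many drugs and urate, had 71.01, 85.35 and 79.40 CPM in siMock and 66.01, 60.66 and 60.89 CPM in siFUBP1. The groups were apart by a narrow gap, with a log2 fold change of -0.33 ± 0.08 (SE, adjusted p = 0.00154, edgeR). ABCC10, an exporter of lipophilic drugs, fell further, by 0.67 on the log2 scale (SE 0.11; adjusted p = 8.35e-06, edgeR), from 27.0 ± 3.5 to 17.0 ± 0.8 CPM (SD, n = 3). It shares 79 exonic bases with DLK2 on the opposite strand. ABCC1, an exporter of glutathione conjugates and drugs, had 135.4, 148.8 and 144.7 CPM in siMock and 124.9, 117.5 and 124.8 CPM in siFUBP1. Its log2 fold change of -0.22 ± 0.08 (SE, adjusted p = 0.0124, edgeR) was among the smallest that passed, and it was -0.05 (adjusted p = 0.493, edgeR) once fold changes were corrected for the G and C content and length of transcripts. ABCC1 also failed the test with scaling by library size alone (adjusted p = 0.143, edgeR), and without siMock replicate 2 or siFUBP1 replicate 2 (adjusted p = 0.0759 and 0.0637, edgeR).

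ABCC4, an exporter of cyclic nucleotides and prostaglandins, had a log2 fold change of -0.17 with a 95% interval from -0.33 to -0.01 (adjusted p = 0.057, edgeR). ABCC5, an exporter of cyclic nucleotides, had 0.23 with an interval from 0.02 to 0.45 (adjusted p = 0.0559, edgeR), and its groups overlapped. Both lay close to the threshold, and ABCC4 passed it in 4 and ABCC5 in 7 of the 17 alternatives. ABCB1, which encodes P-glycoprotein, the best known multidrug pump, had 1, 0 and 0 counts in siMock and 1, 4 and 6 in siFUBP1. Its summed counts stood 10.4 times higher in siFUBP1, with a 95% exact counting interval from 1.51 to 448. That interval leaves out the spread between samples, and with no filter on low counts ABCB1 did not pass (adjusted p = 0.117, edgeR). At such counts a change could not be read at this depth. ABCC11 had 4, 3 and 0 counts in siMock and 6, 3 and 4 in siFUBP1.

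On the FPKM scale (deposited values, scaled to gene length and library size) levels of different genes can be set only roughly side by side. Gene length is that of the whole gene model, which exceeds the longest transcript unevenly. It is 11441 against 5921 bases for ABCC5 and 7575 against 6594 bases for ABCC1. On this scale ABCC2 held 29.3% ± 2.4 (SD, n = 3) of the summed level of the 9 pumps in siMock and 40.7% ± 1.0 in siFUBP1. ABCC3 held 21.3% ± 1.3 and 11.5% ± 1.1. ABCC1 held 17.98% ± 0.56 and 17.51% ± 0.3, and ABCG2 14.8% ± 0.3 and 13.4% ± 0.5. The summed level of the pumps was 104 ± 8.2 FPKM in siMock and 91.9 ± 1.7 FPKM in siFUBP1. ABCC3 was above ABCC1 and ABCG2 in siMock and below both in siFUBP1.

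**Figure D2:**
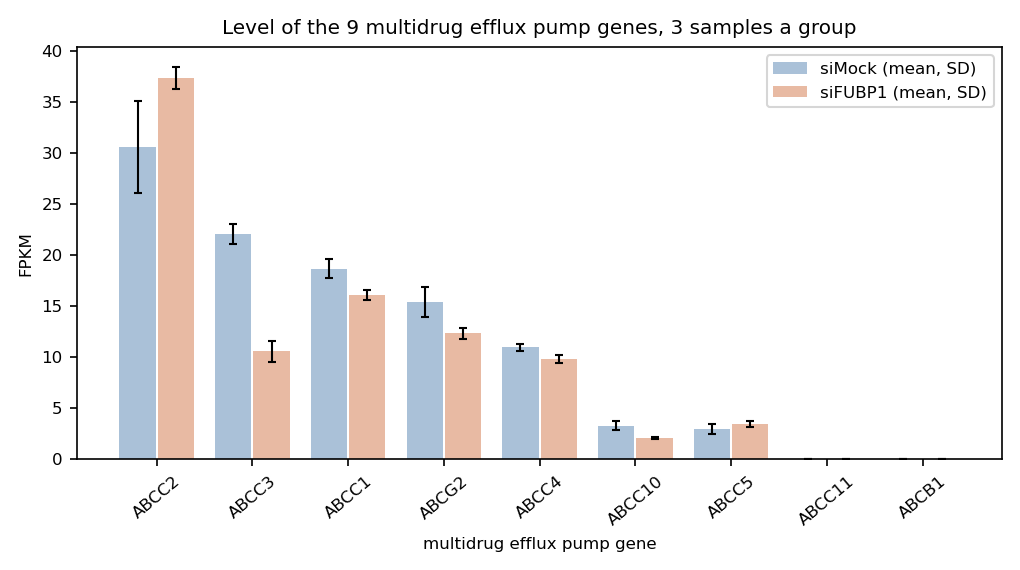
Mean FPKM of the 9 multidrug efflux pump genes in siMock and siFUBP1 (3 samples each, bars from 0, error bars SD). ABCC2 was highest in both groups, at 30.6 and 37.4 FPKM, and ABCC3 went from 22.1 to 10.6 FPKM; ABCC11 and ABCB1 were near 0.

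The sterol and phospholipid exporters gave some of the largest falls. ABCA1 (chr9:104781002-104928237), which loads cholesterol and phospholipid onto apolipoprotein A-I, had 63.1, 89.3 and 80.7 CPM in siMock and 28.8, 27.2 and 27.2 CPM in siFUBP1. The siMock samples varied among themselves, while the siFUBP1 samples lay close together and below all of them. The log2 fold change was -1.49 ± 0.11 (SE, adjusted p = 1.07e-11, edgeR). ABCA7 (chr19:1040101-1065572), a phospholipid exporter related to ABCA1, had 108.9, 108.3 and 98.6 CPM in siMock and 41.7, 39.7 and 37.8 CPM in siFUBP1, with no overlap. Its log2 fold change was -1.41 ± 0.08 (SE, adjusted p = 1.26e-13, edgeR).

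ABCG1, which passes sterols to high-density lipoprotein, did not follow them. It had 72.7, 69.3 and 63.9 CPM in siMock and 59.6, 78.6 and 49.6 CPM in siFUBP1, so the siFUBP1 samples lay on both sides of siMock. The log2 fold change was -0.13 with a 95% interval from -0.42 to 0.15 (adjusted p = 0.413, edgeR), and without siFUBP1 replicate 2 it was -0.32 and passed (adjusted p = 0.00651, edgeR). ABCG4, a relative of ABCG1, had 10, 21 and 9 counts in siMock and 4, 3 and 7 in siFUBP1 and was not tested; with no filter on low counts its log2 fold change was -1.55 (adjusted p = 0.0269, edgeR). ABCG5 and ABCG8, which together form the sterol exporter of liver and gut, had 5 and 25 counts over all 6 samples.

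Among the other lipid carriers of subfamily A, ABCA5 (chr17:69244311-69327244), found in lysosomes and late endosomes, had 126.3, 115.9 and 134.9 CPM in siMock and 43.4, 47.7 and 57.6 CPM in siFUBP1. All siFUBP1 samples were below all siMock samples, with a log2 fold change of -1.34 ± 0.09 (SE, adjusted p = 5.4e-12, edgeR). ABCA10, its neighbour in the chromosome 17 cluster of ABCA8, ABCA9, ABCA6, ABCA10 and ABCA5, had 45 counts over the siMock samples and 3 over the siFUBP1 samples, a ratio of 15.8 with a 95% exact counting interval from 5.09 to 79.7. ABCA10 and ABCA5 share 318 exonic bases on the same strand, and how reads there were counted is not given in the sources used here. The remaining genes of the cluster, ABCA6, ABCA8 and ABCA9, had at most 2 counts over all samples. ABCA4, the retinoid flippase of photoreceptors, was scarce, with 13, 29 and 37 counts in siMock and 6, 6 and 6 in siFUBP1. Its log2 fold change was -2.19, and it entered the test through its siMock counts. On the log2 FPKM scales the falls of ABCA4 and ABCA10 were less than 2-fold.

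ABCA2, an endosomal and lysosomal lipid carrier, went from 244.9 ± 18.1 CPM to 180.2 ± 13.0 CPM (SD, n = 3), which gave -0.44 ± 0.08 as the log2 fold change (SE, adjusted p = 3.45e-05, edgeR). Its longest transcript is 63.7% G or C, and with the G and C correction its log2 fold change was -0.04 (adjusted p = 0.625, edgeR). ABCA3, the phospholipid carrier of surfactant granules, had a log2 fold change of 0.03 with a 95% interval from -0.13 to 0.19 (adjusted p = 0.73, edgeR). ABCA3 was at 0.34 and passed under the same correction (adjusted p = 1.92e-05, edgeR), and its longest transcript is 60.4% G or C. ABCA13 (chr7:48171458-48647496), a very long member of the subfamily, was the clearest rise. It had 13.03, 11.98 and 11.25 CPM in siMock and 20.33, 21.58 and 21.44 CPM in siFUBP1. The groups were far apart and each varied little, with a log2 fold change of 0.80 ± 0.11 (SE, adjusted p = 9.77e-07, edgeR), and ABCA13 passed in every one of the 17 alternatives. ABCA12, a lipid carrier of the skin, had 7 counts over all samples.

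**Figure D3:**
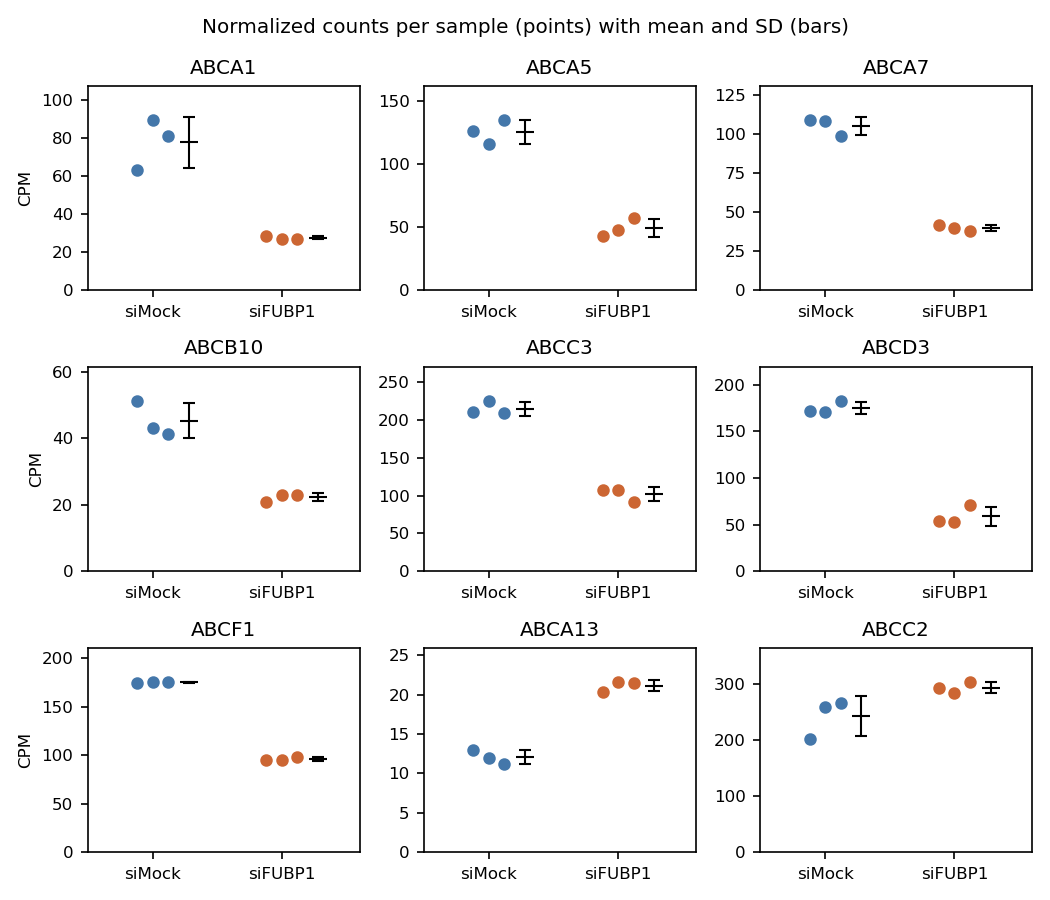
CPM of 9 members in each of the 3 siMock and 3 siFUBP1 samples (points), with mean and SD beside them; each vertical axis starts at 0. The siFUBP1 points of ABCA1, ABCA5, ABCA7, ABCB10, ABCC3, ABCD3 and ABCF1 lie below all siMock points, and those of ABCA13 and ABCC2 above them.

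Mitochondrial carriers of subfamily B fell. ABCB10 (chr1:229516582-229558695), an inner membrane carrier needed for heme synthesis in red cell precursors, had 51.3, 43.3 and 41.3 CPM in siMock and 20.9, 23.0 and 23.0 CPM in siFUBP1, with no overlap. Its log2 fold change of -1.02 ± 0.10 (SE, adjusted p = 1.77e-09, edgeR) lay on the 2-fold line and was less than that in 6 of the 17 alternatives. ABCB8 fell by 0.48 on the log2 scale, from 65.8 ± 5.0 to 47.2 ± 2.2 CPM (SD, n = 3, adjusted p = 2.81e-05, edgeR).

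ABCB6, a porphyrin carrier, was lower at 4.41 ± 0.41 against 3.03 ± 0.33 CPM (SD, n = 3, siMock and siFUBP1), with a log2 fold change of -0.54 ± 0.21 (SE, adjusted p = 0.0269, edgeR), but lost the call in 9 of the 17 alternatives. It shares 2864 exonic bases, 54.7% of its exons, with AC068946.2 on the same strand. ABCB9, the lysosomal peptide carrier, fell by 0.85 on the log2 scale, from 16.7 ± 1.3 to 9.25 ± 0.57 CPM (SD, n = 3, adjusted p = 2.03e-06, edgeR), and overlaps OGFOD2 by 1656 exonic bases and ARL6IP4 by 1590 on the opposite strand. ABCB4 and ABCB11, the phospholipid and bile salt exporters of hepatocytes, had 3 and 1 counts over all samples, and ABCB5 had 1.

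In subfamily D the peroxisomal ABCD3 (chr1:94418455-94518666), which imports branched-chain acyl groups and bile acid precursors, showed the largest fall among the well counted members. It had 171.8, 170.3 and 182.3 CPM in siMock and 54.1, 52.5 and 70.9 CPM in siFUBP1. The groups were far apart, and siFUBP1 replicate 3 was the highest of its group. The log2 fold change was -1.56 ± 0.09 (SE, adjusted p = 6.1e-13, edgeR). ABCD3, ABCA1, ABCA5 and ABCA7 were lower past 2-fold in all 17 alternatives. ABCA7 was only just so with the correction for G and C content and length, at a log2 fold change of -1.0047. By FPKM, ABCD3 ranked 3 among the 45 members in siMock and 14 in siFUBP1.

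ABCD4, the lysosomal cobalamin carrier, fell by 0.39 on the log2 scale, from 34.8 ± 1.4 to 26.6 ± 1.6 CPM (SD, n = 3, adjusted p = 8.64e-04, edgeR), and shares 624 exonic bases with AC005519.1 on the same strand. ABCD2, a peroxisomal carrier, had 1 count over all samples.

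The translation factors of subfamilies E and F did not share a direction. ABCF1 (chr6:30571376-30597179), which binds initiation factor eIF2 and ribosomes, had 174.4, 175.3 and 175.3 CPM in siMock and 95.3, 95.2 and 98.6 CPM in siFUBP1. The spread within each group was very small and the groups were far apart, with a log2 fold change of -0.86 ± 0.07 (SE, adjusted p = 1.77e-10, edgeR). ABCE1, which splits ribosomes after termination, had 119.1, 119.2 and 137.8 CPM in siMock and 145.3, 128.1 and 170.4 CPM in siFUBP1, so the groups overlapped. Its log2 fold change of 0.24 ± 0.09 (SE, adjusted p = 0.0278, edgeR) was lost in 7 of the 17 alternatives, with adjusted p up to 0.241 (edgeR) without siFUBP1 replicate 3. ABCE1 shares 469 exonic bases with ANAPC10 and 276 with OTUD4 on the opposite strand. ABCF2 and ABCF3 had log2 fold changes of -0.17 and 0.05, with 95% intervals from -0.38 to 0.03 and from -0.13 to 0.23 (adjusted p = 0.138 and 0.672, edgeR). ABCF2 shares 1914 exonic bases with AC021097.2 on the same strand, which had 0 counts.

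Of the remaining members of subfamily C, ABCC6, a liver and kidney member whose loss gives pseudoxanthoma elasticum, had 3.49, 1.70 and 2.30 CPM in siMock and 1.42, 0.921 and 1.37 CPM in siFUBP1. The groups were apart but siMock replicate 1 was well above the others, and without it the log2 fold change went from -1.01 to -0.69 and did not pass (adjusted p = 0.102, edgeR). The fall of ABCC6 was less than 2-fold in 9 of the 17 alternatives. Its copies ABCC6P1 and ABCC6P2 had 0 and 8 counts over all samples. ABCC8, the sulfonylurea receptor of potassium channels, was at 1.204 ± 0.229 and 1.93 ± 0.38 CPM (SD, n = 3) in siMock and siFUBP1 and did not pass (log2 fold change 0.68, 95% interval from 0.02 to 1.34; adjusted p = 0.071, edgeR). ABCC9, the other sulfonylurea receptor, had 1 count over all samples. ABCC12 had 0 counts in every sample, where 3 counts, the limit that a count of 0 allows, stand for at most 0.192 CPM in any library. In all, 10 of the 15 untested members had at most 5 counts over the 6 samples.

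**Figure D4:**
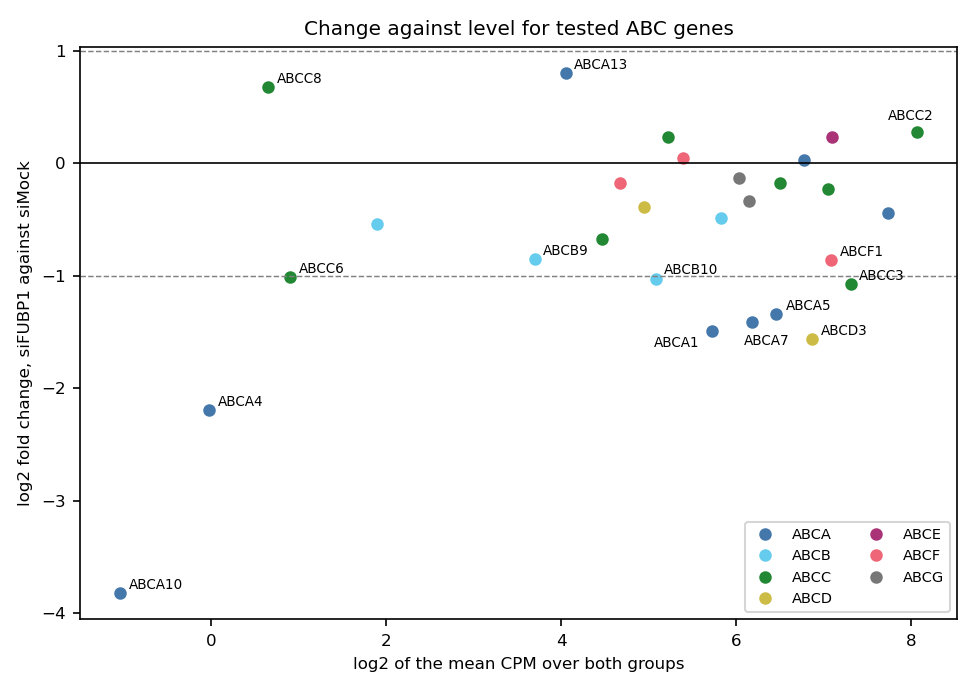
Log2 fold change (vertical axis) against the log2 of the mean CPM over both groups (horizontal axis) for 28 tested members, coloured by subfamily; dashed lines mark a 2-fold change. ABCA10 and ABCA4 have the most negative values at the lowest levels, while ABCD3, ABCA1, ABCA7, ABCA5, ABCB10 and ABCC3 lie below the lower dashed line at high levels.

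The summed level of all 45 members was 2380, 2514 and 2444 CPM in siMock and 1832, 1768 and 1838 CPM in siFUBP1. No siFUBP1 sample reached the siMock range. The sterol and phospholipid exporters together went from 252.6 ± 13.5 to 130.6 ± 15.2 CPM (SD, n = 3), and the efflux pumps from 835.7 ± 62.8 to 724.0 ± 15.3 CPM. By FPKM, ABCF1 led in siMock with 38.3 ± 0.1 (SD, n = 3), apart from ABCC2 with 30.6 ± 4.5. ABCD3, ABCC3 and ABCA2 were among those that followed, between 22.8 and 21.1 FPKM, and the range of ABCC3 overlapped those of ABCD3 and ABCA2. In siFUBP1, ABCC2 led with 37.4 ± 1.1 FPKM, followed by ABCE1 with 23.5 ± 3.3 and ABCF1 with 21.2 ± 0.4.

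Genes that work with the members were taken from set lists, whose shares are to be read against the 30.1% of all tested genes that rose, the 30.1% that fell and their median log2 fold change of 0.002. Of the ABC family under other symbols, TAP1 and TAP2, which load peptides for antigen presentation, had log2 fold changes of -0.18 and -0.56 (adjusted p = 0.0496 and 2.42e-05, edgeR), and the chloride channel CFTR had too few counts. Only 1 of the 2 passed with upper-quartile scaling, with library size scaling or in DESeq2. Of 12 tested partners of sterol sensing and lipoproteins, 4 rose (33.3%, against 30.1% of all tested genes), 6 fell (50% against 30.1%) and 2 did not pass, with a median log2 fold change of -0.32. NPC2 and LPCAT3, which handle lysosomal cholesterol and membrane phospholipid, had log2 fold changes of -1.81 and -1.05, and PLTP, the phospholipid transfer protein, one of 1.12 (adjusted p = 1.85e-13, 1.02e-08 and 1.28e-06, edgeR). NPC1, of the same list and named after its values were seen, went the other way from NPC2. Its log2 fold change was 0.58 (adjusted p = 7.89e-07, edgeR), with means of 203.6 CPM in siMock and 305.0 CPM in siFUBP1. The LXR genes, whose receptors switch on ABCA1 and which are named here after their values were seen, moved in opposite directions: NR1H2 had a log2 fold change of 0.43 and NR1H3 of -0.22 (adjusted p = 0.00252 and 0.0169, edgeR).

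Of 11 tested genes in the list for carriers of copper, platinum and organic cations, 2 rose (18.2%, against 30.1% of all tested genes). In the same list 4 fell (36.4% against 30.1%) and 5 did not pass, with a median of -0.20. The list also holds genes that are not carriers, such as MVP. MVP, the major vault protein, and SLC47A1, a cation exporter, had log2 fold changes of -1.73 and -1.27 (adjusted p = 8.46e-16 and 1.5e-06, edgeR). SLC31A1, the copper importer, and LRRC8D, a subunit of volume-regulated anion channels, both linked to platinum uptake, had 0.72 and 0.56 (adjusted p = 8.89e-08 and 2.52e-06, edgeR). LRRC8A, another subunit of these channels, was at -0.18 and did not pass (adjusted p = 0.0614, edgeR), and the organic cation transporter SLC22A3, named after its values were seen, was at -0.36 (adjusted p = 0.00155, edgeR). Of 7 tested regulators of ABC genes, 3 rose (42.9%, against 30.1% of all tested genes), 2 fell (28.6% against 30.1%) and 2 did not pass, with a median of 0.17. Those that rose were AHR, the aryl hydrocarbon receptor, at 1.32, PPARA, a fatty acid receptor named after its values were seen, at 0.64, and NFE2L2, which acts at antioxidant response elements, at 0.49 (adjusted p = 3.47e-11, 1e-06 and 6.93e-06, edgeR). The 2 that fell were PPARD at -0.49 and KEAP1 at -0.28 (adjusted p = 0.00255 and 0.021, edgeR). ARNT and PPARG did not pass.

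Of 17 tested heme and iron-sulfur partners, 6 rose (35.3%, against 30.1% of all tested genes), 5 fell (29.4% against 30.1%) and 6 did not pass, with a median of 0.07, and CPOX, a heme synthesis enzyme, fell by 1.21 on the log2 scale (adjusted p = 1.32e-08, edgeR). Of 16 peroxisome and cobalamin partners, 6 rose and 6 fell (37.5% each, against 30.1% each) and 4 did not pass, with a median of -0.13 and none past 2-fold. CAT and MMADHC, for catalase and a cobalamin chaperone, had log2 fold changes of 0.50 and 0.69 (adjusted p = 5.81e-06 and 2.18e-08, edgeR). Of 9 ribosome recycling and GCN2 partners, 6 rose (66.7%, against 30.1% of all tested genes), 1 fell (11.1% against 30.1%) and 2 did not pass, with a median of 0.31. ETF1, the termination factor, had a log2 fold change of 0.31 and GCN1, the GCN2 activator, of -0.52 (adjusted p = 9.81e-04 and 5.62e-06, edgeR). Neither pore gene of the channels that ABCC8 and ABCC9 regulate had enough counts to test.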

How the data were processed

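RNA from 6 samples labelled MG63 (3 siMock, 3 siFUBP1, grouped by title) was sequenced from poly-A libraries. The authors deposited 1 table with raw counts per gene, not normalized, and FPKM, which the authors computed from the counts and gene length. Gene length, another deposited column, served the FPKM scale only. The submitters' processing notes name HISAT2 2.0.5, StringTie 1.3.3b, featureCounts 1.5.0-p3 and DESeq2 1.16.1; whether counting used strand is not given in the sources used here. Group means, fold changes and p-values of the authors' own comparison are also in the table and were not used. All 58735 genes matched GENCODE release 29 (GRCh38) by identifier, start and end.

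The groups were tested on raw counts in edgeR 4.0.16 (R 4.3.3) by its robust quasi-likelihood F test, after TMM scaling and edgeR's expression filter by group. P-values were adjusted by Benjamini and Hochberg's method over 16116 genes. CPM are counts scaled by library size and TMM (factors 0.959 to 1.05). Standard errors are the log2 fold change over the root of F. The test was tested on simulated data. Each pair of samples differed by more than sampling noise (chi-square per gene at least 5.87). Counting intervals and the limit of 3 counts cover counting error only. The 17 alternatives were other scalings, filters, DESeq2 1.42.0, limma 3.58.1 on log2(FPKM + 1) and log2(FPKM + 0.1), an adjusted p below 0.01, a replicate block, a correction for G and C content and transcript length (lowess, span 0.3, its trend taken from genes averaging 50 counts or more), and leaving out each sample. Named genes were members and, of the partner lists, all those past 2-fold and a choice of others. That choice did not follow the order of mean CPM, and genes at higher levels were left unnamed. Members, classes and lists were chosen with earlier results of these data known. A few members count in the totals but are not reported here by name or drawn.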

Additional observations from a re-analysis of the deposited data

How the results depend on the processing

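Of 508 values of the 30 tested members under the 17 alternatives, 465 kept their direction and side of the threshold, 26 kept the direction and lost the call, 15 gained it and 2 reversed: ABCA3 to -0.0055 without siMock replicate 3 and ABCG1 to 0.0111 without siFUBP1 replicate 3. Neither had passed, and with each sample left out ABCA3 lay between -0.0055 and 0.0744 and ABCG1 between -0.3236 and 0.0111. For 18 members direction and call held in all 17. The count of members that rose, 3, was 5 with scaling by library size only and 5 with the G and C and length correction; leaving out each sample gave 1 to 4, with 1 without siMock replicate 1. The count lower past 2-fold, 9, was 4 on log2(FPKM + 1) and 5 on log2(FPKM + 0.1), scales that shrink low genes, and 7 to 10 when each sample was left out. With each sample left out, the count that fell, 20, was 18 to 21, the count higher past 2-fold 0 to 0, and the FUBP1 log2 fold change -2.54 to -2.38. With the G and C and length correction 17 fell and FUBP1 was at -2.61, and on log2(FPKM + 1) FUBP1 was at -2.31. The restriction to members with a mean of at least 100 counts was chosen after seeing the data. Scaling by library size only moved the median of all genes to 0.0986 and the higher share of calls from 49.96% to 58.0%. The causes were not tested.

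Whether replicate numbers pair the samples was not settled. Same-numbered samples deviated with r of 0.032, 0.057 and 0.276 across genes, and differently numbered ones with r from -0.227 to 0.178. The siMock replicate 1 sample correlated better with siFUBP1 replicate 2 (0.178) than with its own number, while siMock replicate 3 correlated best with its own number. With the replicate block, 4 members rose, 21 fell and 8 were lower past 2-fold, and FUBP1 was at -2.45.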
